A study of Arabidopsis thaliana with 24 samples.

Results

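The B-box (BBX) genes BBX18 to BBX32 of Arabidopsis thaliana form the set described here, represented by 10 genes chosen by a fixed list of locus identifiers. They are BBX18 (AT2G21320), BBX20 (AT4G39070), BBX21 (AT1G75540), BBX22 (AT1G78600), BBX24 (AT1G06040), BBX25 (AT2G31380), BBX28 (AT4G27310), BBX29 (AT5G54470), BBX31 (AT3G21890) and BBX32 (AT3G21150). All 10 had values, among 17952 genes with values in a table of 37336 rows. Seedlings of Col-0 wild type (WT) and of sig5-3, the T-DNA insertion line SALK_141383C, were grown for 11 days at 19 °C in a 12 h photoperiod and then held for 24 h in continuous light. Chilling at 4 °C started at ZT27 and lasted 5 h, or started at ZT45 and lasted 3 h, and each set had parallel seedlings kept at 19 °C. This gave 8 groups, WT and sig5-3 at each temperature in each time set, with 3 libraries per group and 24 in all. Each library came from 10 pooled seedlings, so a value is an average over all organs of a seedling, and fewer cells of a type cannot be told apart from less RNA per cell. The sets are named by the time at which chilling started. The start time and the length of chilling differed together between the sets, so their effects cannot be told apart.

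A B-box is a zinc-binding protein domain, and BBX proteins of these groups are transcriptional regulators of light-grown seedling development that work with or against the transcription factor HY5. BBX20, BBX21 and BBX22 are known as positive regulators of light-dependent development, whereas BBX18, BBX24 (STO), BBX25 (STH), BBX28 and BBX32 are known as its repressors. The COP1/SPA ubiquitin ligase marks HY5 and several BBX proteins for breakdown in darkness. SIG5, the gene disrupted in sig5-3, encodes a sigma factor that guides the plastid-encoded RNA polymerase to its promoters.

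In TAIR10.1 coordinates with RefSeq annotation, the genes with 2 B-boxes lie at chr2:9126263-9127987 (BBX18, plus strand), chr4:18204631-18206684 (BBX20, minus), chr1:28365824-28367738 (BBX21, plus), chr1:29566863-29568931 (BBX22, plus), chr1:1828340-1829983 (BBX24, minus) and chr2:13381767-13383470 (BBX25, plus). Those with 1 B-box lie at chr4:13675537-13677055 (BBX28, plus), chr5:22114304-22115539 (BBX29, minus), chr3:7708833-7709933 (BBX31, minus) and chr3:7412445-7413727 (BBX32, minus). The 10 encoded proteins differed in their number of B-boxes. The protein of the longest annotated transcript of each gene was searched for the B-box pattern of cysteine, aspartate and histidine residues. The search found 2 matches in BBX18, BBX20, BBX21, BBX22, BBX24 and BBX25 and 1 match in BBX28, BBX29, BBX31 and BBX32. Protein length ran from 121 residues in BBX31, a microprotein, to 331 in BBX21. The most similar pair was BBX24 and BBX25, with identical residues at 72.7% of the shorter protein, followed by BBX28 and BBX29 at 58.1% and BBX20 and BBX21 at 49.6%.

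Promoter sequence, the 250 bases before the annotated start in the TAIR10.1 genome with RefSeq annotation, was searched on both strands for 4 short motifs. They were the G-box CACGTG, which HY5 and PIF factors bind; the CRT/DRE core CCGAC, bound by the cold-induced CBF factors; the evening element AAATATCT; and the CCA1-binding site AAAAATCT, bound by a clock factor. The G-box was in 0 of the 10 promoters, against 6.49% of 27443 promoters of the same length. The CRT/DRE core was in 1, BBX25, against 12.0% of all promoters. The evening element was in 1, BBX24, against 4.79%, and the CCA1-binding site was in 1, BBX28, against 6.69%. Below are the promoters with a match and that of BBX29, which had none and had the largest log2 fold change of the set in each chilling comparison. Motif matches are in capitals and each sequence runs 5′ to 3′ towards its gene. The BBX24 promoter lies on the minus strand at chr1:1829984-1830233, BBX25 on the plus strand at chr2:13381517-13381766, BBX28 on the plus strand at chr4:13675287-13675536 and BBX29 on the minus strand at chr5:22115540-22115789.
BBX24: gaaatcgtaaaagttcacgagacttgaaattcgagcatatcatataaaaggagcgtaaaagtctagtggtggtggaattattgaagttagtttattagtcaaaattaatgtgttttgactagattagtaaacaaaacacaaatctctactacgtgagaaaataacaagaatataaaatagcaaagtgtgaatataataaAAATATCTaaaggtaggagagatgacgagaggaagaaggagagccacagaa
BBX25: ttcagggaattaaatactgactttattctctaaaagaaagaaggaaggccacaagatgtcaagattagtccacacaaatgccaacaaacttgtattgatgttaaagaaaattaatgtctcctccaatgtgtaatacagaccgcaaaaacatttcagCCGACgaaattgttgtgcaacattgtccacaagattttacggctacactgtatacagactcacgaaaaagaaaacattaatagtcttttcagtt
BBX28: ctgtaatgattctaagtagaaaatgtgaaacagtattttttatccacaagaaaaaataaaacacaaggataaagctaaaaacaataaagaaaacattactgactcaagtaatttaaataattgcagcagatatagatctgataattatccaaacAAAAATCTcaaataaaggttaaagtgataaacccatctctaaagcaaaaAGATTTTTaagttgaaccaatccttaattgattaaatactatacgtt
BBX29: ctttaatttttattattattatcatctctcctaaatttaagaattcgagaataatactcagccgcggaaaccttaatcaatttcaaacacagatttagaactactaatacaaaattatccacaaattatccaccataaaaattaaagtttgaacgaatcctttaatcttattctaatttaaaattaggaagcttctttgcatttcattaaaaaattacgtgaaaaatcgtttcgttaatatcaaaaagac
The match in BBX24 lay 51 to 44 bases before the start and that in BBX25 94 to 90 bases before it. BBX28 held 2 matches, 96 to 89 bases before the start and, on the opposite strand, 47 to 40 bases before it. A match describes these letters and is not evidence of binding.

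Values are normalized read abundances as deposited, scaled per library by the authors and not divided by gene length. The values of a library summed to between 790711 and 1092052. Low values fell on steps whose size, taken as 1 read, was 0.0229 to 0.0372, which puts the libraries at an estimated 21275990 to 36441425 reads. A count of 0 then allows up to 3 reads, a value of 0.0688 to 0.111, and these limits cover counting error only. SIG5 itself was at 14.2 to 22.6% of WT in sig5-3 in the 4 conditions, and every sig5-3 library was below every WT library. Shoot markers (5 of 5, of photosynthetic cells, phloem companion cells and guard cells) and root markers (4 of 5, all but WER) had values, whereas 0 of 4 seed and 0 of 3 flower markers did. The sig5-3 library of replicate 1 at 4 °C in the ZT27 set lay apart, with a root-mean-square deviation from its group mean of 0.263 on the log2 scale against 0.0819 to 0.17 for the other libraries. Replicates 2 and 3 of the same group came next, at 0.17 and 0.163, and libraries of the other groups reached at most 0.125. The whole group thus spread more than the others. Tests were made with limma on log2(value + 0.5) over all 17952 genes, with Benjamini-Hochberg adjustment over those genes. Genes with an adjusted p under 0.05 are said to have passed, and those that in addition changed by more than 1.5 on the log2 scale, the threshold named in the design text, are said to be called. Changes are given as log2 fold change ± standard error on that scale, which understates the change of genes at low levels. The design text calls the replicates independent without naming separate cultures, so the p-values measure the spread between these libraries. For each gene that spread was estimated jointly over all 8 groups. The standard error of a gene is therefore the same for any pair of groups. It does not follow the spread within the groups compared.

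Chilling from ZT27 raised 9 of the 10 B-box transcripts and lowered 1, BBX21, in both genotypes. Of all genes tested, 27.6% passed as higher and 28.9% as lower in WT, and 29.6% and 30.4% in sig5-3. In each genotype 7 members were called higher, where 3.19% of all genes were called higher in WT and 3.34% in sig5-3. The median log2 fold change over the members was 2.31 in WT and 2.47 in sig5-3, beside a median over all genes of -0.01 in each. For the 9 that rose, all 3 chilled libraries were above all 3 libraries at 19 °C, and for BBX21 all were below, in each genotype; libraries were separated in this way for 67.3% of all genes in WT and 57.6% in sig5-3.

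**Figure D1:**
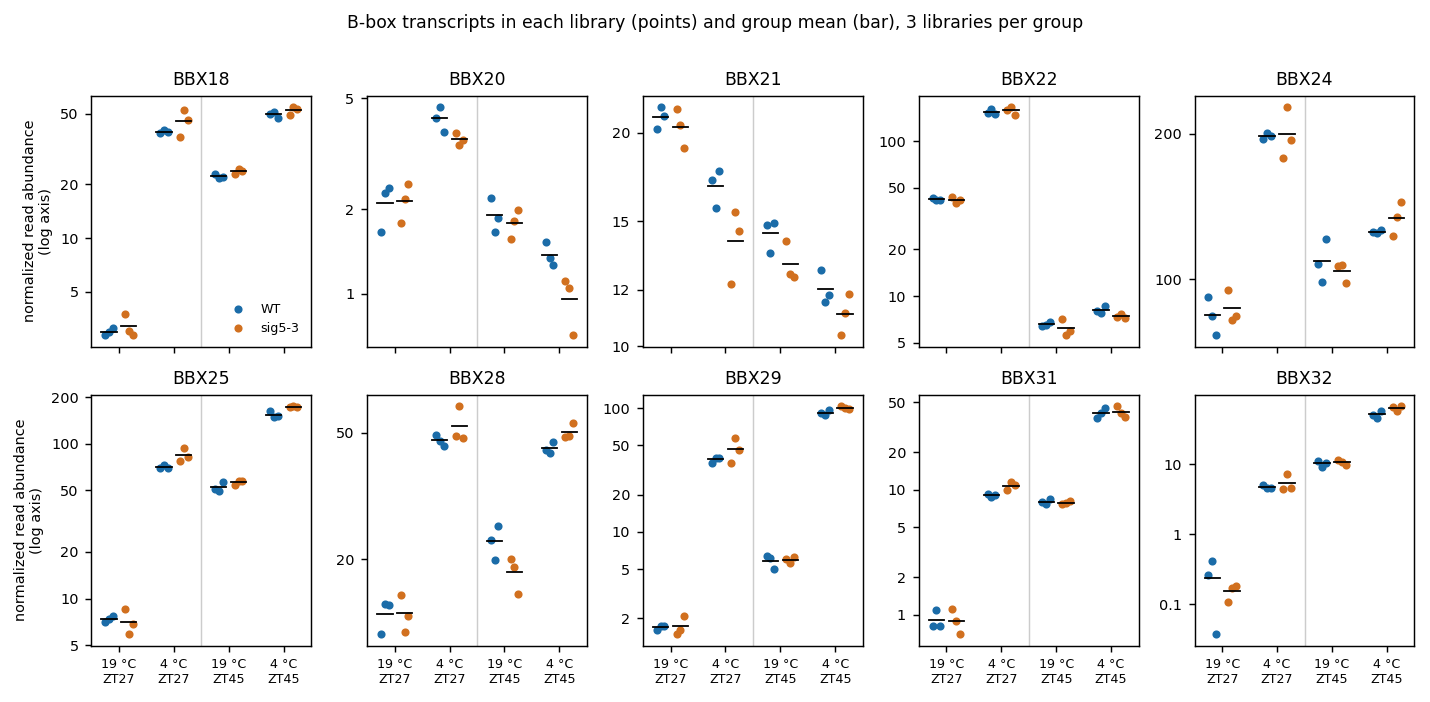
Normalized read abundance of each B-box transcript in each library (points, log axis that differs between panels) and the group mean (bar), for WT (blue) and sig5-3 (orange) at 19 °C and 4 °C in the ZT27 and ZT45 sets, with 3 libraries per group. BBX29 stands at 1.61 to 1.75 in WT at 19 °C in the ZT27 set and at 87.6 to 97.1 at 4 °C in the ZT45 set, and BBX22 is above 39 in every ZT27 library and below 9 in every ZT45 library.

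Among the known positive regulators of light-dependent development, BBX22 (also LZF1) had values of 43.0, 41.7 and 41.4 in WT at 19 °C in the ZT27 set and of 152, 159.8 and 148 after chilling. The groups were well separated, with a ratio of means of 3.65 and a change of 1.86 ± 0.07 (limma adjusted p = 4.79e-17). In sig5-3 the change was 1.90 ± 0.07. BBX20 (BZS1) had low values throughout, at 1.66, 2.29 and 2.38 in WT at 19 °C and 4.25, 4.64 and 3.78 at 4 °C. Its means differed by 2.00-fold and its change was 0.86 ± 0.14 in WT and 0.63 ± 0.14 in sig5-3. BBX21 (STH2) moved the other way, from 20.2, 21.7 and 21.1 to 17.1, 15.6 and 17.7 in WT. That fall of -0.32 ± 0.08 (limma adjusted p = 0.00179) was small beside the increases, and in sig5-3 it was -0.52 ± 0.08.

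Among the known repressors, BBX18 had values of 2.84, 2.98 and 3.12 in WT at 19 °C in the ZT27 set and of 39.0, 40.2 and 39.3 at 4 °C. The 13.2-fold ratio of means corresponded to a change of 3.52 ± 0.09 (limma adjusted p = 6.64e-20), the 54th highest of 17952 genes. BBX25 went from 7.01, 7.38 and 7.69 to 69.4, 72.5 and 70.1, a 9.60-fold ratio and a change of 3.18 ± 0.09. BBX24, its close relative, went from 91.8, 84.0 and 76.5 to 195, 201 and 198. Its ratio of 2.35 (1.23 ± 0.08, limma adjusted p = 7.95e-12) was smaller, and it passed without being called. In sig5-3 the changes were 3.61 ± 0.09 for BBX18, 3.5 ± 0.09 for BBX25 and 1.19 ± 0.08 for BBX24. BBX25 shares 48 annotated bases with AT2G31390 on the opposite strand, whose group means ran from 38.7 to 65.6, and BBX24 shares 344 bases with AT1G06045, which had no values. Libraries were made with a stranded kit, but use of strand in counting was not given in the sources used here, so reads in the shared bases cannot be told apart.

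The 4 genes with 1 B-box match rose in both genotypes. BBX29, the closest relative of BBX28, had values of 1.61, 1.74 and 1.75 in WT at 19 °C in the ZT27 set, or 61, 76 and 47 estimated reads, and of 36.3, 39.7 and 39.8 at 4 °C. Its 22.7-fold ratio was the largest of the set in WT and its change of 4.15 ± 0.12 (limma adjusted p = 6.19e-19) was the 33rd highest of all genes. BBX28, which is known to hinder binding of HY5 to DNA, went from 11.6, 14.5 and 14.3 to 49.2, 47.3 and 45.6 (1.78 ± 0.11). BBX31, a microprotein linked to the UV-B response, went from 0.816, 1.1 and 0.818 to 9.3, 8.71 and 9.0 (2.76 ± 0.10). BBX32, which binds BBX21, was near the limit of detection in WT at 19 °C in this set, with 10, 18 and 1 estimated reads (0.263, 0.413 and 0.0372), the last of them under the limit of 3 reads. After chilling it stood at 4.99, 4.62 and 4.62, or 175, 185 and 187 reads, a 19.96-fold ratio of means that the added 0.5 shrank to a change of 2.86 ± 0.16. In sig5-3 the changes were 4.39 ± 0.12 for BBX29, 1.92 ± 0.11 for BBX28, 3.02 ± 0.10 for BBX31 and 3.16 ± 0.16 for BBX32. In ratios of means BBX32 came first in sig5-3, at 35.5-fold over a baseline of 4 to 6 reads per library, against 27.0-fold for BBX29. BBX32 shares 13 annotated bases with AT3G21140 on the same strand, whose group means stayed between 19.0 and 25.6.

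For every member but BBX20 the SD over the chilled libraries of the ZT27 set was larger in sig5-3 than in WT. Relative to the mean, the chilled sig5-3 libraries of that set spread most for BBX32, BBX29 and BBX18. BBX29 stood at 36.0, 57.9 and 45.6 in those libraries against 1.49, 1.60 and 2.07 in sig5-3 at 19 °C. BBX18 stood at 36.8, 52.5 and 46.2 against 3.76, 3.01 and 2.86, and BBX32 at 4.51, 7.33 and 4.61 against 0.108, 0.172 and 0.183. In each of these genes, and in BBX21, BBX24, BBX25 and BBX31, the chilled replicate 1 was the lowest and replicate 2 the highest. BBX22 spread less, at 159, 166 and 148 against 43.7, 39.9 and 41.7.

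Summed organ markers had overlapping ranges at the 2 temperatures in WT of this set. Root markers moved both ways, whereas the 5 shoot markers all had positive changes, from 0.008 to 0.25, of which 1 passed. The summed level of the 4 root markers was 39.7 to 43.0 at 19 °C and 39.1 to 41.8 at 4 °C in the ZT27 set, and that of the 5 shoot markers was 28611.5 to 35097.4 and 34672.6 to 38063.2. Within these lists SCR fell (-0.43 ± 0.07), NRT2.1 rose (0.51 ± 0.21) and CA1 rose (0.25 ± 0.08) in WT, and their part in the B-box changes was not tested. In chilled sig5-3 of that set the shoot marker sum was 42393.5 to 54964.7, above every other group, and its part in the sig5-3 values was not tested. Without the sig5-3 library that lay apart, the changes in sig5-3 moved by -0.0336 to 0.168 and all 10 passed.

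Chilling for 3 h from ZT45 raised BBX25, BBX29, BBX31 and BBX32 past the called threshold in each genotype. In WT 7 members rose and 2 fell, where 20.2% of all genes passed as higher and 15.5% as lower, and in sig5-3 8 rose and 2 fell, where 17.9% and 17.4% did. The share of all genes called higher was 0.774% in WT and 0.969% in sig5-3. The median over the members was 1.05 in WT and 1.29 in sig5-3, and over all genes 0.03 and -0.01. Libraries did not overlap for any of the 10 members in either genotype, 8 higher and 2 lower, against 51.7% of all genes in WT and 51.2% in sig5-3.

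BBX29 again showed the largest change, from 6.35, 6.12 and 5.02 in WT at 19 °C to 91.6, 87.6 and 97.1 at 4 °C. The 15.8-fold ratio and the change of 3.88 ± 0.12 (limma adjusted p = 1.52e-17) placed it 8th of all genes in WT, and it was 7th in sig5-3 at 3.98 ± 0.12. BBX31 went from 8.02, 7.66 and 8.42 to 37.4, 40.7 and 44.6, 5.09-fold (2.28 ± 0.10). BBX32 went from 11.4, 9.26 and 10.6 to 50.2, 46.8 and 58.6, 4.98-fold (2.26 ± 0.16). All 3 genes with these larger changes encode proteins with 1 B-box match. BBX25 was the called gene with 2 matches, at 51.3, 49.4 and 56.5 against 163, 148 and 150.1, a 2.94-fold ratio (1.55 ± 0.09) that lay just past the fold threshold.

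BBX18 and BBX28 rose without being called in this set. BBX18 had values of 22.9, 21.8 and 22.0 at 19 °C and 49.99, 51.1 and 47.3 at 4 °C in WT (1.14 ± 0.09). BBX28 had 23.0, 19.9 and 25.5 against 44.1, 43.3 and 46.8 (0.96 ± 0.11, and 1.45 ± 0.11 in sig5-3). Of the positive regulators of light-dependent development, BBX22 and BBX21 changed little and BBX20 fell further. BBX22 stood at 6.45, 6.49 and 6.84 in WT at 19 °C and at 8.05, 7.85 and 8.70 after chilling (0.29 ± 0.07, limma adjusted p = 0.00162). BBX21 fell from 14.8, 13.5 and 14.9 to 12.8, 11.5 and 11.8 (-0.25 ± 0.08, limma adjusted p = 0.0177). BBX20 fell from 2.20, 1.66 and 1.87 to 1.53, 1.34 and 1.26 in WT (-0.36 ± 0.14, limma adjusted p = 0.0475) and fell in sig5-3 (-0.66 ± 0.14), so it was raised by chilling in the ZT27 set and lowered in the ZT45 set. BBX20 in WT no longer passed when any of 13 of the 24 libraries was left out (limma adjusted p up to 0.197). BBX24 in WT did not pass, at 108, 98.6 and 121 against 125, 125 and 126 (0.21 ± 0.08, limma adjusted p = 0.0626), and rose in sig5-3 (0.36 ± 0.08). The summed root markers were 46.8 to 53.2 at 19 °C and 65.3 to 70.8 at 4 °C in WT of this set, and 49.3 to 56.6 and 67.8 to 75.2 in sig5-3. NRT2.1, SCR and PHT1;1 rose in both genotypes, and their part in the B-box changes was not tested.

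**Figure D2:**
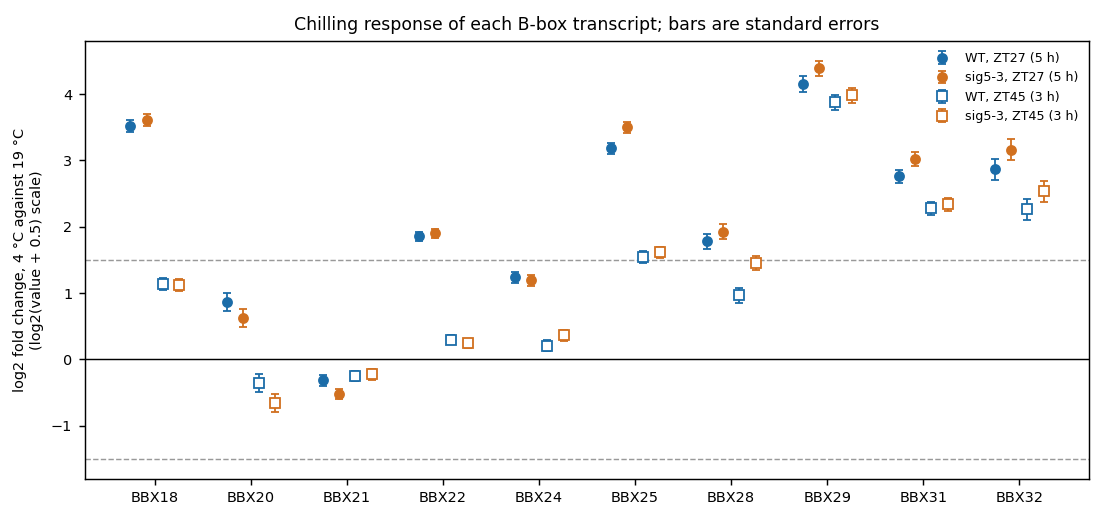
Log2 fold change of each B-box transcript at 4 °C against 19 °C on the log2(value + 0.5) scale, with standard errors, for WT (blue) and sig5-3 (orange) in the ZT27 set (filled circles, 5 h) and the ZT45 set (open squares, 3 h). Dashed lines mark 1.5 and -1.5. BBX29 lies near 4 in all 4 comparisons, between 3.88 and 4.39, whereas BBX18 lies at 3.52 and 3.61 in the ZT27 set and at 1.14 and 1.12 in the ZT45 set.

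Taken with its sign, the chilling response was lower in the ZT45 set than in the ZT27 set for 7 of 10 members in WT. In sig5-3 it was lower for 8 of 10, and it was higher for 0 in each genotype, by the test of the difference. Of all genes, 12.6% passed as lower and 13.7% as higher in WT, and 15.5% and 13.7% in sig5-3. The counts include BBX20, whose response changed sign, from 0.86 to -0.36 in WT and from 0.63 to -0.66 in sig5-3. They also include BBX31 in both genotypes and BBX32 in sig5-3, whose sign depended on the value added before logs, as described below. BBX18 had the largest difference, -2.39 ± 0.13 in WT (limma adjusted p = 9.68e-13), its ratio of means having gone from 13.2 to 2.22. BBX25 differed by -1.63 ± 0.12 and BBX22 by -1.56 ± 0.10. BBX20 differed by -1.22 ± 0.20, BBX24 by -1.03 ± 0.12 and BBX28 by -0.82 ± 0.16. In sig5-3 these 6 differences were -2.49 ± 0.13 for BBX18, -1.88 ± 0.12 for BBX25, -1.66 ± 0.10 for BBX22, -1.29 ± 0.20 for BBX20, -0.83 ± 0.12 for BBX24 and -0.47 ± 0.16 for BBX28. BBX29 did not pass in either genotype, at -0.28 ± 0.17 in WT (interval at 95% confidence -0.62 to 0.07) and -0.41 ± 0.17 in sig5-3 (-0.75 to -0.06). In sig5-3 it passed with 0.1 added before logs (-0.60, limma adjusted p = 0.0123), without replicate 1 at 4 °C of the ZT27 set (-0.58, limma adjusted p = 0.00137) and without replicate 3 at 19 °C of that set. With 2 added it was at 0.13 in WT and 0.015 in sig5-3, so its sign was not settled either. BBX21 did not pass, at 0.07 ± 0.11 in WT and 0.30 ± 0.11 in sig5-3 (limma adjusted p = 0.052), but passed in sig5-3 with 2 added and without any of 5 libraries (limma adjusted p down to 0.0168).

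For BBX31 and BBX32 the difference between sets depended on the value added before taking logs. With 0.5 added, BBX31 differed by -0.48 ± 0.14 in WT and -0.68 ± 0.14 in sig5-3, and BBX32 by -0.60 ± 0.22 in WT (limma adjusted p = 0.0501) and -0.63 ± 0.22 in sig5-3 (limma adjusted p = 0.0373). With 2 added, all 4 turned positive, BBX32 to 0.52 in WT (limma adjusted p = 0.013) and 0.61 in sig5-3 (limma adjusted p = 0.00356). The direction for these transcripts, whose values at 19 °C in the ZT27 set are near the added constant, is therefore not settled on this scale. In ratios of means, chilling changed BBX31 9.88-fold in the ZT27 set and 5.09-fold in the ZT45 set, and BBX32 19.96-fold and 4.98-fold in WT. The sig5-3 ratios were 11.98 and 5.325 for BBX31 and 35.54 and 6.015 for BBX32. With nothing added, each ratio was thus lower in the ZT45 set.

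At 19 °C, without chilling, 7 members were higher in the ZT45 set than in the ZT27 set and 2 were lower, in each genotype. Of all genes 19.9% passed as higher and 21.5% as lower in WT, and 22.1% and 20.4% in sig5-3. BBX32 had the largest difference, with ratios of means of 43.8 in WT and 69.7 in sig5-3 over a baseline of 1 to 18 reads per library, and changes of 3.92 ± 0.16 and 4.10 ± 0.16. BBX25, BBX18 and BBX31 followed, at 2.75 ± 0.09, 2.71 ± 0.09 and 2.60 ± 0.10 in WT and 2.92 ± 0.09, 2.71 ± 0.09 and 2.59 ± 0.10 in sig5-3. BBX29 was higher by 1.52 ± 0.12 and 1.55 ± 0.12. BBX28 was higher by 0.74 ± 0.11 and 0.42 ± 0.11, and BBX24 by 0.37 ± 0.08 and 0.26 ± 0.08. BBX22 was the transcript with the opposite and large difference, lower by 6.38-fold in WT means (-2.58 ± 0.07, limma adjusted p = 2.08e-19) and by 6.73-fold in sig5-3 (-2.66 ± 0.07). BBX21 was lower, with changes of -0.53 ± 0.08 and -0.62 ± 0.08, and BBX20 did not pass (-0.11 ± 0.14 and -0.20 ± 0.14). At 19 °C the summed root markers were 39.7 to 43.0 in the ZT27 set and 46.8 to 53.2 in the ZT45 set in WT, and 37.6 to 44.2 and 49.3 to 56.6 in sig5-3, with no overlap. In both genotypes SCR and the shoot markers RBCS1A and CA1 were higher and NRT2.1 and LHCB1.3 lower in the ZT45 set by limma, CA1 by 1.07 ± 0.08 in WT, and the part of these markers in the B-box differences was not tested.

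In chilled seedlings the sets differed in both directions. In the ZT45 set 5 members were higher and 4 lower in WT, and 4 and 4 in sig5-3. Of all genes 28.3% passed as higher and 24.1% as lower in WT, and 27.1% and 24.3% in sig5-3. BBX22 reached its greatest difference here, with WT means of 154 in the ZT27 set and 8.20 in the ZT45 set, 18.7-fold lower (-4.15 ± 0.07, limma adjusted p = 1.8e-23), and 21.2-fold lower in sig5-3 (-4.32 ± 0.07). BBX20, BBX24 and BBX21 were lower in both genotypes, with changes of -1.33 ± 0.14, -0.66 ± 0.08 and -0.46 ± 0.08 in WT. BBX32, BBX31, BBX29 and BBX25 were higher by 3.31 ± 0.16, 2.12 ± 0.10, 1.24 ± 0.12 and 1.12 ± 0.09 in WT, and by 3.47 ± 0.16, 1.91 ± 0.10, 1.14 ± 0.12 and 1.04 ± 0.09 in sig5-3. BBX18 passed in WT (0.32 ± 0.09) and not in sig5-3 (0.22 ± 0.09, limma adjusted p = 0.0514). The sig5-3 value depended on single libraries, at 0.079 without replicate 1 and 0.33 without replicate 2 of the chilled ZT27 group (limma adjusted p = 0.412 and 0.00323), and it passed with 2 added (0.0366) and among genes with a mean of at least 10 (0.0483). BBX28 did not pass, at -0.08 ± 0.11 and -0.06 ± 0.11, with WT means of 47.4 ± 1.83 (SD, n = 3) and 44.7 ± 1.83 (SD, n = 3). Here the length of chilling, 5 h or 3 h, differed with the start time. The summed root markers were 39.1 to 41.8 in the ZT27 set and 65.3 to 70.8 in the ZT45 set in chilled WT, and 39.1 to 48.1 and 67.8 to 75.2 in chilled sig5-3. In chilled WT, SCR was higher in the ZT45 set (1.34 ± 0.07, limma adjusted p = 4.42e-14), as was CA1 (0.80 ± 0.08), and LHCB1.3 (-0.70 ± 0.11) and CASP1 (-0.57 ± 0.24) were lower; the part of these markers in the B-box differences was not tested.

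**Figure D3:**
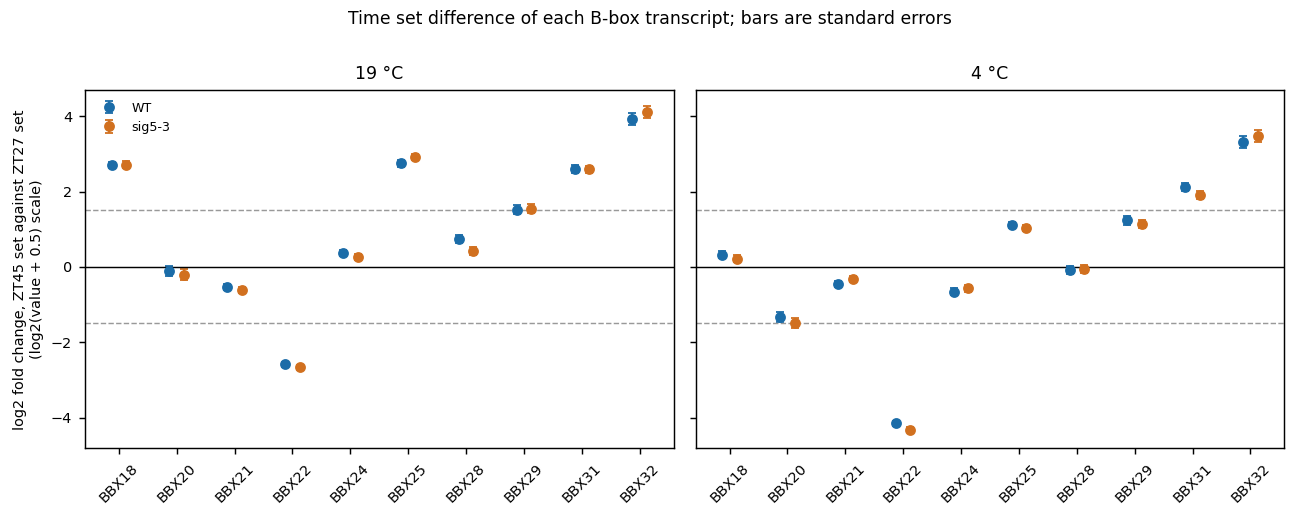
Log2 fold change of each B-box transcript in the ZT45 set against the ZT27 set on the log2(value + 0.5) scale, with standard errors, at 19 °C (left) and 4 °C (right) in WT (blue) and sig5-3 (orange). Dashed lines mark 1.5 and -1.5. BBX22 is the lowest point in each panel, at -2.58 and -4.15 in WT, and BBX32 the highest, at 3.92 and 3.31.

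The order of the levels over the 4 WT conditions differed between members. BBX18, BBX25, BBX29 and BBX31 had the same order of means, lowest at 19 °C in the ZT27 set, then 19 °C in the ZT45 set, then 4 °C in the ZT27 set, and highest at 4 °C in the ZT45 set. BBX32 differed from them in that its mean at 19 °C in the ZT45 set, 10.4 ± 1.07 (SD, n = 3), was above that at 4 °C in the ZT27 set, 4.74 ± 0.213 (SD, n = 3). BBX20, BBX22, BBX24 and BBX28 were highest at 4 °C in the ZT27 set, and BBX21 was highest at 19 °C in that set. Neighbouring pairs of group means were also looked at for overlap, without the share over all genes, which was not computed. The pairs whose libraries overlapped are therefore named as description only. In both genotypes these were BBX20 at 19 °C in the ZT27 and ZT45 sets and BBX28 at 4 °C in the ZT27 and ZT45 sets. In sig5-3 they were also BBX18 at 4 °C in the ZT27 and ZT45 sets, and BBX21 at 4 °C in the ZT27 set beside 19 °C in the ZT45 set.

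Divided by transcript length, levels can be set beside each other. On this scale of abundance per kb, BBX24 had the highest level of the set in WT at 19 °C in the ZT27 set (60.4 ± 5.47, SD, n = 3), at 4 °C in that set (142 ± 2.07, SD, n = 3) and at 19 °C in the ZT45 set (78.3 ± 8.12, SD, n = 3). At 4 °C in the ZT45 set BBX25 was higher, with 121 ± 6.28 (SD, n = 3) against 90.1 ± 0.586 (SD, n = 3) for BBX24. BBX22 ranked 2nd in both ZT27 conditions, at 25.1 and 91.6 per kb, and 9th in both ZT45 conditions, at 3.93 and 4.89. The sum over the 10 genes per kb was 120.8 and 417.8 in the ZT27 set at 19 °C and 4 °C, and 190.9 and 459.0 in the ZT45 set. BBX22 made up 20.8% and 21.9% of that sum in the ZT27 set and 2.06% and 1.07% in the ZT45 set. The share of BBX29 went from 1.22% at 19 °C to 8.02% at 4 °C in the ZT27 set and from 2.65% to 17.4% in the ZT45 set.

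**Figure D4:**
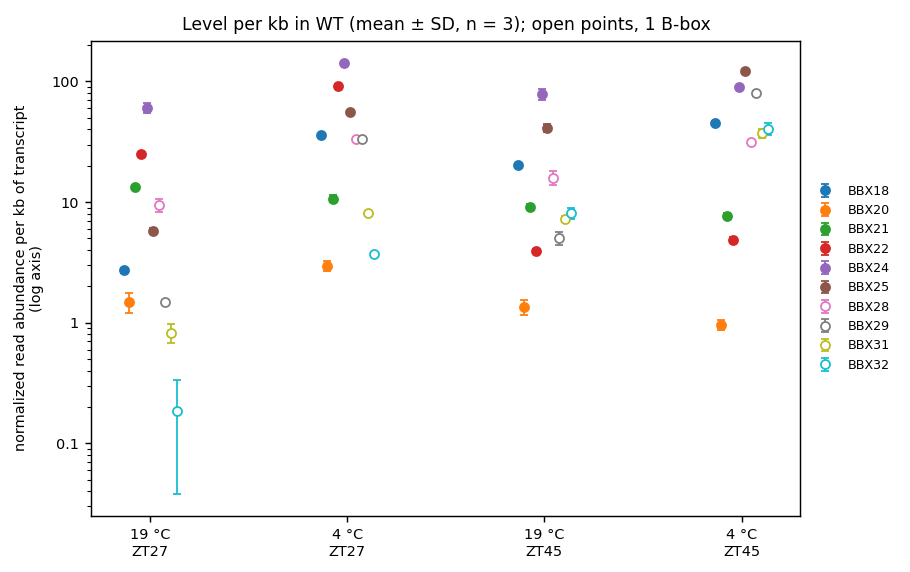
Level of each B-box transcript in WT as normalized read abundance per kb of transcript (log axis), mean and SD of 3 libraries, in the 4 conditions. Filled points are genes with 2 B-box matches and open points genes with 1. BBX24 is highest in 3 of the conditions and BBX25, at 121, in the chilled ZT45 seedlings, while BBX22 goes from 91.6 in chilled ZT27 seedlings to 4.89 in chilled ZT45 seedlings.

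Between sig5-3 and WT no B-box transcript passed in any of the 4 conditions by limma. The count was 0 of 10 at 19 °C in the ZT27 set (0 at an unadjusted p under 0.05), where 0.0111% of all genes passed, and 0 of 10 at 4 °C in the ZT27 set (3 unadjusted), where 7.44% did. It was 0 of 10 at 19 °C in the ZT45 set (1 unadjusted) with 0.039% of all genes, and 0 of 10 at 4 °C in the ZT45 set (1 unadjusted) with 0.0279%. Differences between sig5-3 and WT lay between -0.38 and 0.32, with intervals reaching from -0.66 to 0.65, so that changes within those bounds are not excluded. Averaged over the 4 conditions, where 6.39% of all genes passed, 1 member passed. This was BBX21, at -0.14 ± 0.04 (limma adjusted p = 0.0424), with sig5-3 means of 20.4, 14.1, 13.1 and 11.1 against WT means of 21.0, 16.8, 14.4 and 12.0 in the order 19 °C and 4 °C of the ZT27 set and 19 °C and 4 °C of the ZT45 set. Its libraries separated only at 4 °C in the ZT27 set, with 12.2, 15.4 and 14.5 in sig5-3 and 17.1, 15.6 and 17.7 in WT. It no longer passed without trend and robust settings (limma adjusted p = 0.053), or when any of 15 of the 24 libraries was left out, with adjusted p from 0.0199 to 0.0889 over the 24. Without the library that lay apart, BBX18 (0.14, limma adjusted p = 0.0134) and BBX29 (0.15, limma adjusted p = 0.0434) passed beside BBX21 (limma adjusted p = 0.0406). The share of all genes that passed in that fit is not given here.

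The chilling response of the B-box genes showed no difference between the genotypes that passed. The count was 0 of 10 in each set (1 unadjusted in each), where 0% of all genes passed. In the ZT27 set the differences in response ran from -0.24 to 0.32, and BBX25 had the highest, 0.32 ± 0.12 (limma adjusted p = 0.441), which was 0.20 without sig5-3 replicate 2 at 19 °C of that set. Its chilled libraries in that set stood at 77.8, 93.2 and 82.3 in sig5-3, above the 69.4, 72.5 and 70.1 of WT. In the ZT45 set they ran from -0.30 to 0.49, and BBX28 had the highest, 0.49 ± 0.16 (limma adjusted p = 0.999). The intervals over the members reached from -0.64 to 0.76 in the ZT27 set and from -0.71 to 0.81 in the ZT45 set.

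Other genes of the family and pathway were described from lists. Of the other genes numbered BBX18 to BBX32, BBX23 and BBX26 had no values. In WT of the ZT27 set BBX19 and BBX30 rose (1.83 ± 0.14 and 0.89 ± 0.15) and BBX27 fell (-2.62 ± 0.15), and in the ZT45 set they changed in the same directions (0.79 ± 0.14, 2.01 ± 0.15 and -1.86 ± 0.15). BBX30 and BBX31, both microproteins that bind CONSTANS, thus both rose in each set. Of 15 CONSTANS-like genes, BBX1 to BBX17 with values, 8 rose and 3 fell in the ZT27 set, where 27.6% and 28.9% of all genes did, and 8 rose and 5 fell in the ZT45 set, where 20.2% and 15.5% did, all in WT.

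Of 17 light-signalling partners, 9 rose and 7 fell in WT of the ZT27 set (27.6% and 28.9% of all genes), and 7 rose and 6 fell in the ZT45 set (20.2% and 15.5% of all genes). HY5, the transcription factor with which the B-box proteins act, rose by 1.07 ± 0.09 and 1.41 ± 0.09, and its homologue HYH by 2.65 ± 0.16 and 0.80 ± 0.16. SPA1, a subunit of the COP1/SPA ligase, rose by 1.54 ± 0.08 and 0.39 ± 0.08. PIF1, PIF4 and PIF5, transcription factors that oppose light-grown development, fell, with changes of -2.26 ± 0.11, -0.76 ± 0.12 and -0.66 ± 0.08 in the ZT27 set and of -1.19 ± 0.11, -2.56 ± 0.12 and -1.75 ± 0.08 in the ZT45 set. All 11 light-induced targets, genes of flavonol synthesis, early light-induced proteins and UV-B feedback regulators, rose in WT in each set (median 2.38 and 1.36), where 27.6% of all genes rose in the ZT27 set and 20.2% in the ZT45 set. FLS1 and CHS, enzymes of flavonoid synthesis, rose by 2.38 ± 0.09 and 2.46 ± 0.11 in the ZT27 set and by 0.63 ± 0.09 and 0.58 ± 0.11 in the ZT45 set.

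The genes whose pattern was most like that of a B-box gene were found by Pearson's r of log2(value + 0.5) over the 24 libraries, among 10801 genes with a mean of at least 10, for the 7 members called in a comparison. The libraries fall into 4 conditions and share their scaling, so r is a description. For BBX22 they were GIGANTEA (GI, r = 0.997), AT1G08890 (0.994) and the CONSTANS-like gene BBX13 (0.994). For BBX25 they were the early light-induced protein genes ELIP1 (0.995) and ELIP2 (0.994) and the flavonoid glucosyltransferase gene UGT78D2 (0.994). For BBX29 they were ABCI21 (0.996), the flavonol regulator MYB111 (0.991) and AT3G52740 (0.988). For BBX18 they were BGLU6 (0.994), SPS2 (0.994) and AT1G80130 (0.992), and for BBX31 MTP11 (0.995), AT2G25530 (0.993) and bHLH34 (0.993). For BBX32 they were AT5G42760 (0.996), ASG4 (0.994) and NCS1 (0.994), and for BBX28, with the lowest likeness of the 7, GID1B (0.983), GALS2 (0.978) and SD1-29 (0.976). Within the set, the most alike pair was BBX18 and BBX25 (r = 0.984), followed by BBX25 and BBX31 (0.978) and BBX31 and BBX32 (0.974).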

How the data were processed

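RNA from 24 seedling samples was sequenced. Per the labels' protocols and the series' design text, libraries were made with the Illumina TruSeq Stranded mRNA kit, sequenced on an Illumina NextSeq, and trimmed and aligned with STAR 2.4.1d in Partek 6.6 (Partek and STAR also stand in the submitters' processing notes) to a genome named there as TAIR11. The deposited values are a signal, normalized read abundances; the scaling method and the counting of strand are not given in the sources used here. Between 88.9 and 91.4% of a library's values under 30 were whole multiples, within 0.05 steps, of the value of 1 read, too few for a count test. Columns were matched to samples by the labels, and 0 columns of per-sample values were left unused. Group means of 8 groups were fitted to log2(value + 0.5) with limma 3.58.1 in R 4.3.3 (empirical Bayes with trend and robust, 16 residual degrees of freedom before moderation) and p-values were adjusted over all 17952 genes with values. The fit was tested on simulated data. Coordinates, transcript lengths and proteins are from RefSeq on TAIR10.1, to which 17952 of 17952 genes matched by locus tag; protein identity used global alignment, and no coordinate came from the files. All 10 members were named in each comparison; for those called, the 3 most alike genes were named. Members and lists were chosen with earlier results of these data known. Alternatives were 0.1 or 2 added before logs, only genes with a mean of at least 10, median-ratio scaling, only the groups compared, no trend or robust, a replicate block, and each library left out. Every other result of the whole series is not analysed here.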

Additional observations from a re-analysis of the deposited data

Results flagged for a closer look

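Chilling responses that differed between the ZT45 and ZT27 sets, by limma's test of the difference with adjustment over all genes, were looked at again. Given as the ZT45 response minus the ZT27 response on the log2 scale, they were -2.39 for BBX18, -1.22 for BBX20, -1.56 for BBX22, -1.03 for BBX24, -1.63 for BBX25, -0.82 for BBX28 and -0.48 for BBX31 in WT. In sig5-3 they were -2.49 for BBX18, -1.29 for BBX20, -1.66 for BBX22, -0.83 for BBX24, -1.88 for BBX25, -0.47 for BBX28, -0.68 for BBX31 and -0.63 for BBX32. Start time and length of chilling differ together between the sets and cannot be told apart. On this scale the sign for BBX31 and BBX32 depended on the value added. With 2 added before logs it was positive in both genotypes, at 0.52 in WT and 0.61 in sig5-3 for BBX32. With nothing added, the ratios of means for BBX31 in the ZT27 and ZT45 sets were 9.88 and 5.09 in WT and 11.98 and 5.325 in sig5-3. For BBX32 they were 19.96 and 4.98 in WT and 35.54 and 6.015 in sig5-3, over a baseline near the limit of detection.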

How the results depend on the processing

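Over all alternatives, 1206 of 1236 member chilling values kept their direction and their side of the threshold and none turned direction. That total includes fits that left out a library outside the groups compared. In such fits the change itself could not move and only its p-value could, so they do not test its direction. With 2 added before logs, the difference in response between sets turned for BBX29 to 0.13, BBX31 to 0.17 and BBX32 to 0.52 in WT, and for BBX29 to 0.015, BBX31 to 0.0088 and BBX32 to 0.61 in sig5-3, and the mean genotype difference of BBX28 to 0.0012. With 0.1 added, BBX32 in WT was at -1.74 (limma adjusted p = 0.00448); the cause was not tested. With each library left out, the mean genotype difference lay between -0.0287 and 0.0247 for BBX28 (turned without any of 12 libraries) and between -0.0038 and 0.0395 for BBX24, and the difference between sets in chilled sig5-3 lay between -0.117 and 0.0506 for BBX28; the last 2 turned without sig5-3 replicate 2 at 4 °C of the ZT27 set.

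The count of members with a genotype difference at 4 °C in the ZT27 set was 0, and 1 with the filter on a mean of at least 10, 1 with median-ratio scaling and 0 to 2 with each library left out (2 without sig5-3 replicate 1 of that group, 1 without any of 4 other sig5-3 libraries of the ZT27 set). The count for the mean of conditions was 1, and 0 without trend and robust. It was 0 to 3 with each library left out (3 without the same library). The share of all genes that passed in these alternatives is not given here. Replicate numbers did not pair the libraries: the deviations of 84 same-numbered pairs correlated at -0.320 to 0.292, with 13 over 0.1, and 4 of 24 libraries correlated best with their own number. With the replicate block that count was 0 (BBX21, limma adjusted p = 0.0584), and BBX20 in WT of the ZT45 set was not past the threshold (limma adjusted p = 0.0605). Chilling changes at ZT45 that no longer passed with a library left out were those of BBX21 in WT (without WT ZT45 replicate 1 or 3 at 19 °C or replicate 2 or 3 at 4 °C, adjusted p up to 0.0708) and in sig5-3 (without replicate 1 at 19 °C or replicate 1 or 2 at 4 °C, up to 0.158) and of BBX22 in sig5-3 (without replicate 2 at 19 °C, 0.0648). In sig5-3 the differences between sets of BBX28 and BBX32 were lost without any of 6 and 7 libraries (adjusted p up to 0.0843 and 0.109), and in WT that of BBX31 without 1 (0.0512). BBX24 in sig5-3 at 19 °C lost its difference between sets without any of 4 libraries (up to 0.0805), and BBX24 in WT of the ZT45 set passed without any of 3 (down to 0.0204). With only the groups compared, BBX20 in WT (0.0537) and BBX22 in sig5-3 (0.0587) of the ZT45 set, BBX21 between sets in chilled sig5-3 (0.0537) and the BBX28 difference in response in sig5-3 (0.0581) did not pass, and BBX24 in WT of the ZT45 set did (0.0197), all limma adjusted p. At the depth of these libraries BBX32 at 19 °C in the ZT27 set, at 1 to 18 reads, is the least precise value.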
